A study of Schizosaccharomyces pombe with 4 samples.

Results

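The mitochondrial genome of the fission yeast *Schizosaccharomyces pombe* gave 39 of the 12684 features counted in these libraries. They were taken by their chromosome, which the count tables name mitochondrial. No measured value entered this rule, but earlier results of these data were known when it was chosen. The 39 features comprise 8 mRNAs, 3 open reading frames (ORFs) inside introns, 2 ribosomal RNAs, the RNA subunit of RNase P and 25 tRNA genes, all on 1 strand. The study compared poly(A)+ RNA with total, ribo-depleted RNA to follow the biogenesis of a nuclear long non-coding RNA, and the organelle was not its subject. Each fraction comprised 2 biological replicates of vegetative, haploid *h-* cells that carry *leu1-32* and the *pat1-L95G::kanR* allele in both fractions, and that were grown in minimal medium (EMM) at 30 °C for 2 days. Poly(A)+ RNA was enriched on oligo(dT) beads, and total RNA was depleted of ribosomal RNA with another library kit. The fractions were also sequenced with different kits, read lengths and instruments, whose effects cannot be told apart from that of the fraction. The libraries held 25530272 and 30363472 counts in poly(A)+ RNA, against 30650533 and 29055323 counts in total RNA. The mating type label was checked on its markers. In the 4 libraries, *mfm1*, which encodes the pheromone of *h-* cells, had 28163 to 40312 counts, whereas *map2*, which encodes that of *h+* cells, had 6 to 13 counts. The *h+* genes *map1* and *map3* were at 254 to 1284 counts.

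Mitochondria of fission yeast keep a small circular genome that encodes core subunits of the respiratory chain and of ATP synthase, the rRNAs and tRNAs of the organelle's own ribosomes, and a ribosomal protein. It is transcribed by the phage-type polymerase Rpo41 into long precursors, from which RNase P and RNase Z release the tRNAs and with them the flanking mRNAs and rRNAs. Nuclear mRNAs receive a poly(A) tail at their 3’ ends, whereas mature mitochondrial mRNAs of yeasts lack one, and a C-rich motif has been described at the 3’ ends of mitochondrial mRNAs in this species.

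The sequences after the stop codons are shown because these 3’ ends are what oligo(dT) beads would have to capture. They were read from RefSeq assembly ASM294v3, start at the stop codon and end 4 bases after the first run of at least 4 C, which is in capitals.
*cox1* (MT:8790-8815, + strand): taatttaaaatcttaaCCCCCCtttt
*cox3* (MT:9768-9797, + strand): taaggcttacttcaatttttCCCCCCtttt
*cob* (MT:13862-13879, + strand): taatctcttCCCCCttta
*atp6* (MT:15529-15546, + strand): taattttctCCCCCtatt
*rps3* (MT:16637-16654, + strand): taattgtttCCCCCttca
*atp8* (MT:17060-17075, + strand): taatttaaCCCCtcca
*atp9* (MT:18030-18044, + strand): taatttCCCCCttta
*cox2* (MT:19307-19322, + strand): taacctCCCCCCtaaa
The motif CCCC occurred within 40 nucleotides of the stop codon in 8 of the 8 mRNAs. Its distance from the stop codon was 3 nucleotides in *cox2* and *atp9* and 17 in *cox3*. Of all windows of 40 nucleotides in the mitochondrial genome, 2.94% held CCCC on the + strand and 3.05% on the - strand. The gene for the small rRNA, *rns*, ended in such a run as well (MT:4524-4553, + strand), whereas the last 30 nucleotides of the large rRNA gene *rnl* held none.
*rns*: gaataattaattcaggttaaCCCCCCCCCa
The features of *cox1*, *cox3*, *cob*, *atp8* and *atp9* as counted extend 2 to 6 nucleotides past the run, while those of *atp6*, *rps3* and *cox2* end at the stop codon. A match to these letters is a description and was not tied to a protein or a cleavage site.

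In total RNA, mitochondrial transcripts took a large share of the library. They received 8.34% of the counts in replicate 1 (95% Wilson interval 8.33 to 8.35%) and 7.96% in replicate 2 (7.95 to 7.97%), intervals that cover counting error only. Across the 39 features, the levels of the replicates had a Spearman rho of 0.98, a description over genes that share a genome and partly overlap. Levels are given here as RPKM, counts per kilobase of feature and per 1000000 counts of the library. Features were counted over their whole span, introns included, and 73 of the 73 pairs of features nested on 1 strand had an inner count above 0 and never above the outer one. Reads on an intron ORF were therefore taken as counted for its host gene as well. The shares of 8.34% and 7.96% include both. They rest on 2557636 and 2311832 mitochondrial counts, of which 2380202 and 2130354 remained with the intron ORFs left out. Shares of the mitochondrial counts given below also include the intron ORFs.

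**Figure D1:**
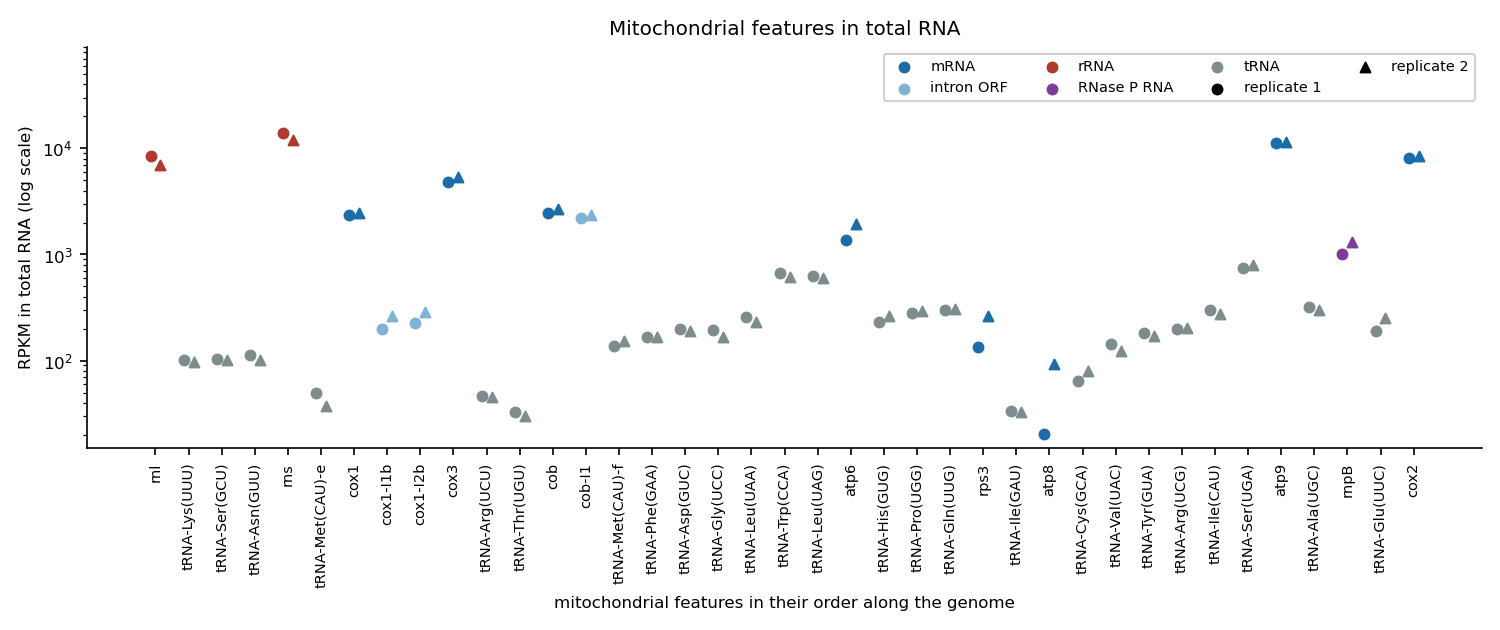
RPKM of the 39 mitochondrial features in total RNA (log axis), in their order along the genome; circles are replicate 1, triangles replicate 2, and colours give the kind of RNA. The rRNAs, *atp9* and *cox2* lie near or above 6900 RPKM, whereas the tRNA genes lie between 30.2 and 789 RPKM and *atp8* at 20.1 and 93.1 RPKM.

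The small rRNA *rns* was the most abundant member, with 14062 and 11951 RPKM, and it had rank 2 of all 12684 features in both total libraries. The large rRNA *rnl* had 8414 and 6900 RPKM. Both rRNAs thus remained among the highest features of libraries depleted of ribosomal RNA, and how far the depletion reached them was not tested. Together they took 52.5% and 45.9% of the mitochondrial counts.

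The mRNAs spanned a wide range of levels. *atp9*, which encodes the subunit of the ring that rotates in ATP synthase, had 11174 and 11380 RPKM and had ranks 4 and 3 of all features. *cox2*, a core subunit of cytochrome c oxidase that binds copper, had 8055 and 8381 RPKM. *cox3*, another core subunit of that oxidase, had 4789 and 5410 RPKM. For these 3 mRNAs the replicates were close, and their ranges did not overlap one another.

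Lower levels were found for genes that contain introns, when taken over their whole span, and for the rest of the ATP synthase genes. *cob*, which encodes cytochrome b of complex III, had 2436 and 2694 RPKM over its whole span. *cox1*, which encodes the catalytic subunit of cytochrome c oxidase, had 2361 and 2476 RPKM. These neighbours in the order were not separated by the replicates, since the ranges of *cob* and *cox1* overlapped. *atp6*, the channel subunit of ATP synthase, had 1363 and 1934 RPKM. The RNase P RNA *rnpB*, which belongs to the enzyme that cuts tRNA 5’ ends, had 1016 and 1315 RPKM. *rps3*, which encodes a ribosomal protein, had 134 and 263 RPKM. The lowest mRNA was *atp8*, a small membrane subunit of ATP synthase, with 20.1 and 93.1 RPKM from 100 and 438 counts.

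The coding sequences of *atp8* and *atp9* are printed because these short genes for subunits of 1 enzyme lay at opposite ends of the mRNA range, with 48 and 74 codons before the stop. G and C are in capitals, and they made up 19.0% of *atp8* and 38.2% of *atp9*.
*atp8* (MT:16916-17062, + strand): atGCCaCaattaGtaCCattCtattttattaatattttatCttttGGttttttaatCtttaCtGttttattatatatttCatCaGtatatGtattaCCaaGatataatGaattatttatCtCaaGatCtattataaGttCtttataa
*atp9* (MT:17808-18032, + strand): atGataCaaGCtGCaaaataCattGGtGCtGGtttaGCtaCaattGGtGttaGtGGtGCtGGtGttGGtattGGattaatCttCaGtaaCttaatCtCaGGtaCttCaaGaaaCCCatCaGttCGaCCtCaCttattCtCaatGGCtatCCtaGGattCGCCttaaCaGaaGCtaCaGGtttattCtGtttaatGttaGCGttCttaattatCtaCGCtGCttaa

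GC content and level moved together across the 14 features other than tRNA genes, with a Spearman rho of 0.86, as a description over features that partly overlap. The gap between the total replicates followed GC content as well. The ratio of replicate 2 over replicate 1 was 4.62 for *atp8* (21.0% GC as counted), 1.97 for *rps3* (22.5%) and 1.42 for *atp6* (25.3%), against 0.82 for *rnl* (31.0%) and 0.85 for *rns* (33.8%). Over the 14 features the rho of this ratio with GC content was -0.83, and over the 25 tRNA genes it was -0.03. Among nuclear protein-coding genes with a mean of at least 50 counts, only 9 lay below 30% GC, with a median ratio of 1.09 and a range of 0.71 to 2.15. The lowest of these 9 had 25.8% GC, so that no nuclear gene was compared at the GC content of *atp8*, *rps3* or *atp6*. In the bins of nuclear genes from 30 to 42% GC the median ratio was 1.01 to 1.02. The part of GC content in the levels of the A- and T-rich mRNAs was not tested, and the values of *atp8* and *rps3* differ between the replicates by more than those of any other mRNA.

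**Figure D2:**
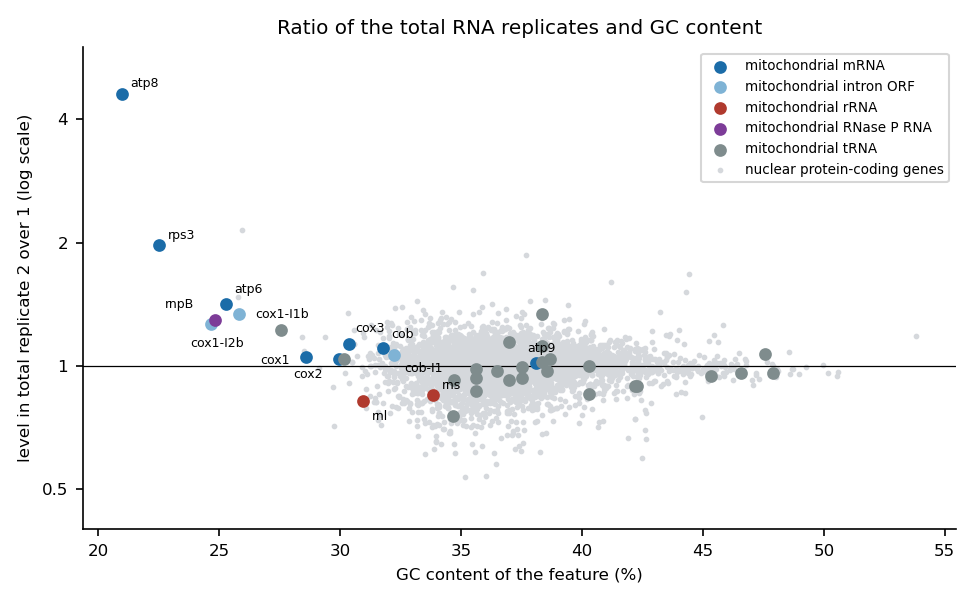
Ratio of the level in total replicate 2 over total replicate 1 (log axis) against the GC content of each feature in percent; large points are mitochondrial features by kind and small grey points are nuclear protein-coding genes. *atp8* at 4.62 and *rps3* at 1.97 lie farthest above the line of equal levels at 1 among the mitochondrial features, and the rRNAs lie below it.

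The intron ORFs of *cob* and *cox1* lay at different levels in total RNA. *cob* contains a group II intron of 2526 nucleotides, whose ORF *cob-I1* encodes a protein with a reverse transcriptase domain by the RefSeq annotation. *cox1* contains 2 group I introns of 1210 and 1081 nucleotides, whose ORFs *cox1-I1b* and *cox1-I2b* encode proteins of the LAGLIDADG family, known for endonuclease and maturase functions. *cob-I1* had 67.9 and 68.3 counts per nucleotide, against 87.5 and 97.1 in the rest of *cob*. *cox1-I1b* had 6.03 and 7.65 counts per nucleotide, and *cox1-I2b* had 6.92 and 8.28, against 141 and 139 in the rest of *cox1*. The group II intron ORF was therefore at 74.0% ± 5.1 of its host gene outside the ORF (SD, n = 2). The group I intron ORFs were at 4.90% ± 0.88 and 5.44% ± 0.76 (SD, n = 2 each). The ranges of *cob-I1* and of both *cox1* ORFs were far apart, and those of the 2 *cox1* ORFs overlapped. The rest of a host gene comprises its exons and the intron bases outside the ORF, so that these shares are not splicing efficiencies. Whether reads stem from unspliced precursors or from excised introns cannot be told apart in counts per gene.

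**Figure D3:**
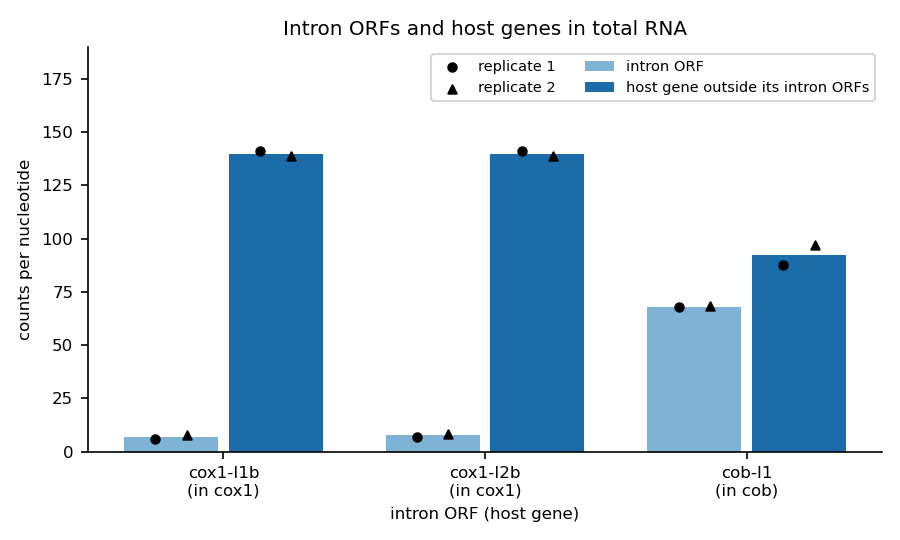
Counts per nucleotide in total RNA for each intron ORF (light bars) and for its host gene outside the intron ORFs (dark bars); bars are means of 2 libraries and points the libraries. *cob-I1* reaches 74.0% of the rest of *cob*, whereas the *cox1* ORFs reach 4.90% and 5.44% of the rest of *cox1*.

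Once the intron ORFs were set apart, *cox1* exceeded *cob*. The part of *cox1* outside its ORFs, 1926 nucleotides long, had 4604 and 4773 RPKM, against 2854 and 3343 RPKM for the 1279 nucleotides of *cob* outside *cob-I1*. The order of these mRNAs thus depended on how the introns were treated. Outside its ORFs *cox1* also came close to *cox3*, which has 1 exon and had 4789 and 5410 RPKM.

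All 25 tRNA genes were detected in total RNA, at 32.6 to 738 RPKM with a median of 189 in replicate 1, and at 30.2 to 789 RPKM with a median of 171 in replicate 2. They took 0.51% and 0.53% of the mitochondrial counts. How well such short, folded RNAs entered these libraries was not measured, so that their levels are compared with one another only. The highest were tRNA-Ser(UGA) with 738 and 789 RPKM, tRNA-Trp(CCA) with 667 and 618 RPKM and tRNA-Leu(UAG) with 621 and 602 RPKM. The lowest were tRNA-Thr(UGU) with 32.6 and 30.2 RPKM, tRNA-Ile(GAU) with 33.5 and 33.0 RPKM and tRNA-Met(CAU)-e with 49.2 and 37.2 RPKM. The ranges of these high and low tRNAs were far apart, whereas tRNA-Trp(CCA) and tRNA-Leu(UAG) as well as tRNA-Thr(UGU) and tRNA-Ile(GAU) lay close together. The order of the 25 genes agreed between replicates with a rho of 0.98.

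For 5 amino acids the organelle encodes a pair of tRNAs, and the members of each pair differed in level in both libraries, by 2.42- to 8.88-fold. tRNA-Ile(CAU) had 657 and 581 counts, against 75 and 70 for tRNA-Ile(GAU). tRNA-Ser(UGA) had 1855 and 1879 counts, against 264 and 243 for tRNA-Ser(GCU). The other pairs were tRNA-Arg(UCG) over tRNA-Arg(UCU), at 4.25- and 4.46-fold, tRNA-Met(CAU)-f over tRNA-Met(CAU)-e, at 2.77- and 4.10-fold, and tRNA-Leu(UAG) over tRNA-Leu(UAA), at 2.42- and 2.62-fold. The genes of the isoleucine and serine pairs, which differed most, are printed with the anticodon in capitals.
tRNA-Ile(CAU) (MT:17544-17615, + strand): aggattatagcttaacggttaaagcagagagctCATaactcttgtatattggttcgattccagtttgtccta
tRNA-Ile(GAU) (MT:16664-16736, + strand): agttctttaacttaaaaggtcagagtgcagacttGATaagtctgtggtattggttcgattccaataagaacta
tRNA-Ser(UGA) (MT:17637-17718, + strand): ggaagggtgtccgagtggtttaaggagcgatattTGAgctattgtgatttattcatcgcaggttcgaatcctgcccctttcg
tRNA-Ser(GCU) (MT:2969-3051, + strand): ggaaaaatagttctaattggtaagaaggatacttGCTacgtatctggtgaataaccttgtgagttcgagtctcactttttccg
In a global alignment the isoleucine genes were identical in 65.8% of columns and the serine genes in 58.6%. How reads that match several places were counted is not given in the sources used here.

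Position along the genome went with tRNA level, with a rho of 0.55 over the 25 genes. The 5 runs of neighbouring tRNA genes differed in this respect. In the run of 6 genes that opens with tRNA-Cys(GCA) and closes with tRNA-Ser(UGA) before *atp9*, each gene was higher than the one before it in both libraries, with 64.8 and 79.3 RPKM at the start and 738 and 789 RPKM at the end. In the run of 7 genes between *cob* and *atp6*, 4 of the 6 steps led up in both libraries, and the level was 136 and 152 RPKM for tRNA-Met(CAU)-f at the start and 621 and 602 RPKM for tRNA-Leu(UAG) at the end. The level went up at each step in both libraries in the runs of 3 genes that open with tRNA-Lys(UUU) and tRNA-His(GUG). Steps in the run of tRNA-Lys(UUU) were small, with 98.1, 100.8 and 101.3 RPKM from 208, 243 and 209 counts in replicate 2. They were not tested against counting error. In the remaining run it went down in both libraries, with 46.2 and 45.9 RPKM for tRNA-Arg(UCU) and 32.6 and 30.2 RPKM for tRNA-Thr(UGU) after it. The 11 mRNAs, rRNAs and RNase P RNA showed no such order, at a rho of -0.25. The features of tRNA-Leu(UAG) and *atp6* overlap by 2 nucleotides and those of tRNA-Glu(UUC) and *cox2* by 4, so that reads across these junctions could be counted for both.

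In poly(A)+ RNA, the mitochondrial transcripts were nearly absent. Only 44 and 76 counts fell on the 39 features in the poly(A)+ libraries, against 2557636 and 2311832 in the total libraries. This is 1.72 and 2.50 counts per 1000000 counts of the library in poly(A)+ RNA, against 83445 and 79567 in total RNA. The mean share was 0.00021% ± 0.000055 over the poly(A)+ libraries and 8.15% ± 0.27 over the total libraries (SD, n = 2 each), a 38569-fold difference of the means. The log2 ratio of the shares was -15.26, and it was -15.25 with the intron ORFs left out. Both poly(A)+ libraries lay below both total libraries (exact two-sided permutation p = 0.33, the smallest that 2 against 2 libraries allow). A lower share of RNA with tails and lower capture of such RNA cannot be told apart in these counts.

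No count was found on 31 of the 39 features in either poly(A)+ library. These are all 25 tRNA genes, *rnpB*, *cox1-I2b* and the mRNAs *atp6*, *rps3*, *atp8* and *atp9*. Over all 12684 features, 594 were at 0 in both poly(A)+ libraries, of which 238 were above 0 in both total libraries. Of the 171 nuclear tRNA genes, 120 were at 0 in both poly(A)+ libraries, 64 of them above 0 in both total libraries. Zeros in poly(A)+ RNA were thus not particular to the tRNA genes of the organelle. *atp9* had 0 and 0 counts in poly(A)+ RNA, against 81857 and 79028 in total RNA. *atp6* had 0 and 0 counts in poly(A)+ RNA, against 36020 and 48426 in total RNA. With a floor of 3 counts per library and libraries scaled by their totals, *atp9* was at least 24920-fold lower in poly(A)+ RNA and *atp6* at least 13138-fold lower.

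The bounds followed the depth in total RNA for the other features at 0. They were at least 2952-fold for *rnpB*, which had 8534 and 10466 counts in total RNA, at least 2012-fold for *cox1-I2b*, with 5896 and 7058, and at least 1254-fold for *rps3*, with 2799 and 5225. *atp8* was at least 84.8-fold lower. Among the tRNAs the bound was at least 579-fold for tRNA-Ser(UGA) and at least 21.2-fold for tRNA-Thr(UGU). A smaller loss of the low tRNAs was thus not detectable at this depth.

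**Figure D4:**
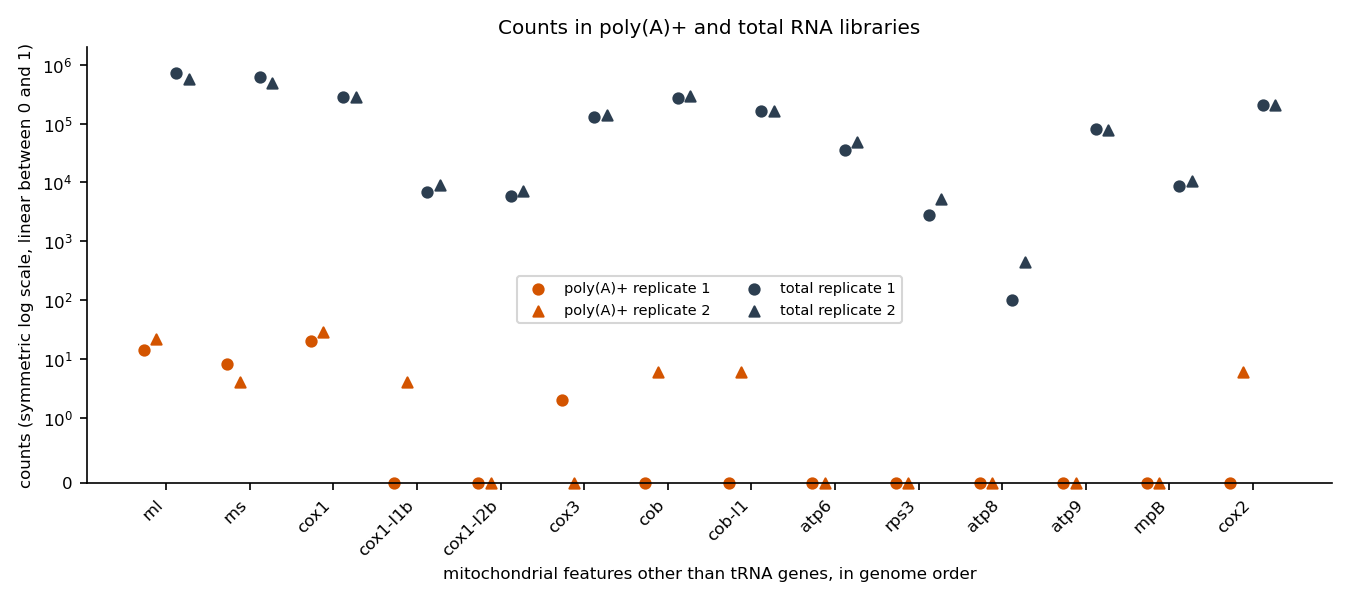
Counts of the 14 mitochondrial features other than tRNA genes in the poly(A)+ libraries (orange) and the total libraries (dark), on a symmetric log axis that shows 0. Poly(A)+ counts lie between 0 and 28, and total counts between 100 and 729104.

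The few counts left in poly(A)+ RNA lay on abundant transcripts, with *cox1* first. *cox1* had 20 and 28 counts in poly(A)+ RNA, against 284661 and 282996 in total RNA. *rnl* had 14 and 22 counts in poly(A)+ RNA, against 729104 and 566749 in total RNA. *rns* had 8 and 4 counts in poly(A)+ RNA, against 612439 and 493416 in total RNA. In both poly(A)+ libraries *cox1* thus exceeded both rRNAs, which were each above it in total RNA.

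The remaining ones were seen in 1 poly(A)+ library each. *cob* and *cob-I1* both had 0 and 6 counts in poly(A)+ RNA, and no count was left for *cob* outside the ORF. In total RNA *cob* had 276470 and 289813 counts. *cox2* had 0 and 6 counts in poly(A)+ RNA, against 206162 and 203340 in total RNA. *cox3* had 2 and 0 counts in poly(A)+ RNA, against 129029 and 138173 in total RNA. *cox1-I1b* had 0 and 4 counts in poly(A)+ RNA, against 6966 and 8840 in total RNA, so that 20 and 24 of the *cox1* counts in poly(A)+ RNA lay outside its intron ORFs.

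All of these counts are even, in 4 of 4 features above 0 in poly(A)+ replicate 1 and 7 of 7 in replicate 2. Among all features with 1 to 30 counts, 61.7% and 60.0% of the values were even in the poly(A)+ libraries, against 50.01% and 48.8% in the total libraries. Whether both mates of a pair were counted is not given in the sources used here. Counting intervals therefore take 2 counts as 1 pair in poly(A)+ RNA, which gives 22 and 38 pairs in all. The 38 include pairs on *cob-I1* and *cox1-I1b* that were taken as counted for the host genes as well.

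Relative to its counts in total RNA, *cox1* kept more in poly(A)+ RNA than the rRNAs and the other mRNAs still seen there. For every 1000000 of its counts in the total libraries, *cox1* had 84.6 counts in the poly(A)+ libraries (95% Poisson interval 54.2 to 126). The same ratio was 27.8 for *rnl* (16.5 to 43.9), 14.7 for *cox2* (3.02 to 42.8), 10.9 for *rns* (3.98 to 23.6), 10.6 for *cob* (2.19 to 31.0) and 7.48 for *cox3* (0.19 to 41.7). The interval of *cox1* lay above those of these 5 features, which overlapped one another. For the mRNAs at 0, a floor of 3 counts per library allows up to 37.3 for *atp9*, 71.1 for *atp6*, 748 for *rps3* and 11152 for *atp8*. The bounds of *atp6*, *rps3* and *atp8* lie above the lower end of the *cox1* interval, so that *cox1* was not set apart from them. *cox1-I1b* had 253 (30.6 to 914), from 2 pairs in 1 library.

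Runs of A inside the transcripts were compared because oligo(dT) can also bind such runs. The longest run of A was 9 nucleotides in *cox1* and lay in *cox1-I1b*, while the part of *cox1* outside its intron ORFs held none longer than 5. *rnl* held a run of 8, *rns* and *cob* of 7, and *cox2* and *cox3* of 5. *cox1-I2b* had a run of 8 and *rps3* of 7 with no counts in poly(A)+ RNA. The summed poly(A)+ counts followed the counts in total RNA with a rho of 0.88 over the 14 features. The part of internal runs of A in the remaining counts was not tested.

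In the fit over all features (edgeR's quasi-likelihood test with Benjamini-Hochberg adjustment), all 39 mitochondrial features were lower in poly(A)+ RNA and none higher, beside 35.5% of the 11234 tested features that were lower and 49.7% that were higher. All but *cox1* and *rnl* entered the fit through their counts in total RNA alone and so had to differ. *cox1* and *rnl* also reached the filter's limit in both poly(A)+ libraries. The count of 39 is a description only. For features that entered through total RNA alone, the adjusted p, at most 0.00166 for *atp8*, lends no support. For *cox1*, the feature with the most poly(A)+ counts, the log2 fold change was -14.19 (SE 0.15, adjusted p = 1.26e-06). It was -15.79 for *rnl* (SE 0.22, adjusted p = 2.03e-06). For *rns*, which entered through total RNA alone, the fitted value was -17.10 (SE 0.35), as a description without support from its p. The value of *rns* was -17.78 without poly(A)+ replicate 1 and -16.51 without poly(A)+ replicate 2. The median fitted log2 fold change was -12.60 over the 39 features and 0.84 over all tested features. With the features at 0 set to their bounds, the median of the 39 was -7.58. Without normalization beyond library totals, the fold by which total exceeded poly(A)+ RNA was 11078 for *cox1* (95% counting interval 7445 to 17290), 33609 for *rnl* (21266 to 56708) and 125275 for *cox3* (22484 to 4948080), the last from 2 counts.

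Few other abundant RNAs were lost to this degree. Of 3134 features with at least 1000 counts in both total libraries, 40 had at most 30 counts in both poly(A)+ libraries. Of these 40, 16 were mitochondrial, and they were all 16 of the mitochondrial features that reached 1000 counts. The 24 nuclear ones were 9 snoRNA, 5 lncRNA, 4 snRNA and 4 rRNA features and 2 features that matched no annotated gene. Both limits were chosen after the values had been seen.

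The division of the mitochondrial counts between kinds of RNA could be compared only coarsely, given the few counts in poly(A)+ RNA. The mRNAs took 22 of 44 counts (95% Wilson interval on pairs 30.7 to 69.3%) and 40 of 76 counts (37.3 to 67.5%) in poly(A)+ RNA, against 39.8% and 45.3% in total RNA. The difference of 8.78 percentage points could not pass a test with 2 libraries in each fraction (exact two-sided permutation p = 0.33, the smallest possible) and turned to -5.98 points when counts were divided by feature length (exact permutation p = 0.667). The rRNAs took 22 of 44 and 26 of 76 counts in poly(A)+ RNA, against 52.5% and 45.9% in total RNA. A shift from rRNA to mRNA or back was therefore not detectable at this depth. The tRNA genes had none of the 44 and 76 counts in poly(A)+ RNA, which with the Wilson interval on 22 and 38 pairs allows up to 14.9% and 9.18%, above their 0.51% and 0.53% in total RNA.

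The loss set the mitochondrial genes apart from the nuclear genes of the same enzymes, whose mRNAs are made in the nucleus and carry poly(A) tails. A list of 29 nuclear genes for subunits of complex III, complex IV and ATP synthase was compared, and all were found in the tables. *cob* had 0 and 0.053 RPKM in poly(A)+ RNA, against 2436 and 2694 RPKM in total RNA. The median of the 9 nuclear genes of complex III was 184 and 205 RPKM in poly(A)+ RNA, against 131 and 137 RPKM in total RNA. For complex IV, the median of *cox1*, *cox2* and *cox3* was 0.089 and 0.23 RPKM in poly(A)+ RNA, against 4789 and 5410 RPKM in total RNA. That of its 8 nuclear genes was 146 and 169 RPKM in poly(A)+ RNA, against 87.3 and 90.7 RPKM in total RNA. For ATP synthase, *atp6*, *atp8* and *atp9* were at 0 in both poly(A)+ libraries, against a median of 1363 and 1934 RPKM in total RNA. Its 12 nuclear genes had a median of 178 and 183 RPKM in poly(A)+ RNA, against 158 and 155 RPKM in total RNA.

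In total RNA, *cob*, *cox1*, *cox2*, *cox3*, *atp6* and *atp9* each exceeded the highest nuclear gene of their complex in both libraries. For ATP synthase that gene was *atp2*, which encodes the catalytic beta subunit, at 1329 and 1312 RPKM. *atp8* was the exception. It lay below the lowest nuclear gene in replicate 1, at 20.1 against 76.9 RPKM, and above it in replicate 2, at 93.1 against 79.5 RPKM. In the poly(A)+ libraries every mitochondrial gene was below every nuclear one. As a single value, the median log2 counts per nucleotide of the 8 mitochondrial mRNAs minus that of the 29 nuclear genes was -11.62 ± 0.20 in the poly(A)+ libraries and 4.21 ± 0.03 in the total libraries (SD, n = 2 each). The change of -15.84 had an exact two-sided permutation p of 0.33, the smallest possible. With most mitochondrial mRNAs at 0, the value in poly(A)+ RNA rests on the pseudocount of 0.5.

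**Figure D5:**
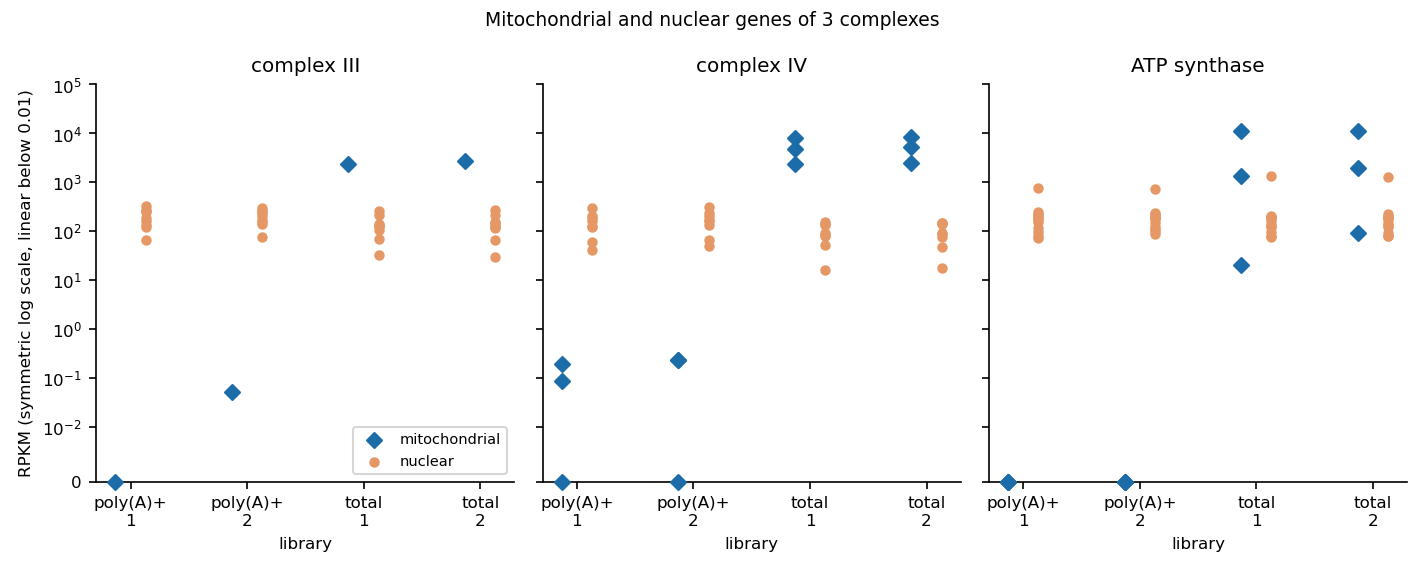
RPKM of mitochondrial genes (diamonds) and nuclear genes (circles) of complex III, complex IV and ATP synthase in each poly(A)+ and total library, on a symmetric log axis that shows 0. In poly(A)+ RNA the mitochondrial genes lie at 0 to 0.24 RPKM, and in total RNA *atp8* alone lies among or below the nuclear genes.

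The nuclear partner genes shifted little by comparison, and their direction depended on the scaling. With TMM factors 18 of the 29 were lower in poly(A)+ RNA and 5 higher, beside 72.4% of nuclear protein-coding genes that were lower and 7.89% that were higher. With library totals alone 1 was lower and 12 higher, and with factors from nuclear protein-coding genes 1 was lower and 22 higher. Shares over nuclear protein-coding genes under these other scalings are not given here, so these counts are no result about the partner genes. The count lower with TMM factors also fell when either total library was left out. Their median log2 fold change was -0.46, beside -0.93 over nuclear protein-coding genes and 0.84 over all tested features. The ends of the range in each complex were *cyt1*, cytochrome c1, at 0.51 (SE 0.13, adjusted p = 0.00957) and *qcr9* at -0.83 (SE 0.12, adjusted p = 0.000884) in complex III, and *cox8* at 0.70 (SE 0.18, adjusted p = 0.00987) and *cox4* at -0.64 (SE 0.12, adjusted p = 0.00241) in complex IV, from edgeR. In ATP synthase they were *atp20* at -0.42 (SE 0.11, adjusted p = 0.0138) and *atp2* at -1.58 (SE 0.11, adjusted p = 3.9e-05). None of these values comes near the -14.19 of *cox1*.

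The nuclear genes that act on mitochondrial RNA were read as a list as well, and 23 of the 25 listed names were found. They include *rpo41*, the mitochondrial RNA polymerase, *mtf1*, its transcription factor, the *ppr* genes for pentatricopeptide repeat proteins that bind organelle RNA, and *rpm1*, an RNase of the organelle's RNA degrading complex. With TMM factors 19 of the 23 were lower in poly(A)+ RNA and 0 higher in edgeR, also 0 higher at an unadjusted p under 0.05. The shares of nuclear protein-coding genes were the same 72.4% and 7.89%. In DESeq2 22 were lower and 0 higher. With library totals 11 were lower and 4 higher, and with factors from nuclear protein-coding genes 8 were lower and 5 higher. Shares over nuclear protein-coding genes are given for TMM factors only, so the other counts are no result about this list. With TMM factors the 23 genes had a median log2 fold change of -1.17 beside -0.93 over nuclear protein-coding genes. *rpo41* had 786 and 1168 counts in poly(A)+ RNA, against 2428 and 2234 in total RNA. The lowest of the list in poly(A)+ RNA, *ppr2*, still had 184 and 285 counts there, more than the 44 and 76 counts of all mitochondrial features together.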

How the data were processed

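Counts of 12684 features were analysed in 4 libraries, 2 of poly(A)+ RNA and 2 of total RNA. The authors trimmed the reads with fastp 0.23.1 or Cutadapt 1.15, aligned them with STAR 2.6.1d, counted them with featureCounts (Subread 2.0.6) and deposited the counts without normalization. The genome build and the counting options for strand, pairs and overlaps are not given in the sources used here. Field names stand 1 place to the right of their values and were read by position. Of the 39 mitochondrial features, 34 had the start and 32 the end of the RefSeq ASM294v3 annotation, among them all 25 tRNA genes, and sequences were read from that assembly.

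Poly(A)+ RNA was set against total RNA in edgeR 4.0.16 (R 4.3.3; filterByExpr, TMM, glmQLFit, glmQLFTest, adjusted p under 0.05) over all 11234 features that passed the filter, and the test was tried on simulated data. Shares and ratios were computed in Python 3.11.15 and tested by exact permutation. Folds against features at 0 use a floor of 3 counts per library. Poisson and Wilson intervals are at 95% and cover counting error only. Named were all mRNAs, intron ORFs, rRNAs and the RNase P RNA, the 3 highest and 3 lowest tRNAs by level and by fold change, those at 0 in a fraction, and the extremes of each complex; *rpo41*, *mtf1* and *rpm1* were named in addition. The members, lists and rules were chosen with earlier results of these data known. Alternatives were other scalings, DESeq2 1.42.0, other filters, pseudocounts and definitions, the replicate number as a block, and each library left out in turn.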

Additional observations from a re-analysis of the deposited data

How the results depend on the processing

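In the edgeR and DESeq2 fits, all tested mitochondrial features had negative log2 fold changes under the 11 alternatives, none above -8.95. All 39 were tested, except that a mean of at least 50 counts left 35. For all features but *cox1* and *rnl*, which alone reached the main filter's limit in poly(A)+ RNA too, this outcome was fixed in advance. It therefore adds no support for them. The median fitted log2 fold change moved away from -12.60 by more than the spread of replicates, to -12.96 with DESeq2's size factors, -12.19 with library totals, -12.09 with factors from nuclear protein-coding genes and -12.86 in DESeq2. It ranged from -12.78 to -12.44 when 1 library was left out, and both ends also lay beyond that spread. The cause of these shifts was not tested. The nuclear partner genes lower in poly(A)+ RNA were 1 of 29 with library totals and 1 with factors from nuclear protein-coding genes, and those higher were 12 and 22. With DESeq2's size factors and in DESeq2, 0 were higher. Leaving out 1 library gave 7 to 20 lower and 0 to 7 higher. The mRNA share of mitochondrial counts turned to -5.98 percentage points per nucleotide, and the mean log2 ratio of intron ORFs to host genes in total RNA, -2.28 over the whole gene, was -3.003 outside the ORFs. The share of counts and the comparison with nuclear partners kept their direction under every alternative tried.

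Libraries of both fractions carry replicate numbers 1 and 2, yet across 11234 genes replicate 1 did not deviate alike in poly(A)+ and total RNA (r = -0.01), so that they were taken to share only a number. With replicate number as a block, all 39 features were again lower, as a description only, with a median of -12.59. Under this setting 18 partner genes were lower and 4 higher, which without shares over nuclear protein-coding genes is no result about them either. Where 1 library was left out of a fraction, the lone one was assumed to vary like the other fraction. Depth limits the low tRNAs and *atp8*, whose bounds are smallest, and every ratio that rests on the 44 and 76 poly(A)+ counts. Biological replicates are named by the labels, and with 2 in each fraction no permutation test could pass.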
